A study of Mus musculus with 8 samples.

Results

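The 10 genes described here mark the endothelium of the liver, chiefly the sinusoidal endothelial cells, and were followed in whole-liver RNA. They are Stab1, Stab2, Lyve1, Clec4g, Mrc1, Fcgr2b, Kdr, Tek, Pecam1 and Oit3. The members are every probe set whose platform annotation gives one of these symbols as its only gene, which makes 16 probe sets of the 34945 with a single symbol and of 45037 in all. The rule itself uses no measured level. Lyve1 had 2 probe sets, Clec4g 2, Fcgr2b 5 and the other 7 genes 1 each. Where a gene had several, it is represented by the one with the highest mean over all arrays. All 10 representative probe sets were above the array's median on all 8 arrays, so every marker was measured in this tissue.

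The study asked which liver genes depend on Sirt1, a NAD-dependent deacetylase, and on age. Livers came from 4 groups, and each group had 2 arrays. The groups were 3-month-old Sirt1-deficient mice (MT) and wild-type mice (WT) of 3, 12 and 19 months. All groups were labelled with the same mixed background, 129/FVB/Black Swiss. No group received a treatment, and all animals were killed in the morning after Avertin injection and their blood was drained. The MT animals carried the targeted Sirt1 alleles in all cells, and few such animals live to adulthood, so the 2 arrays stand for survivors and the genotype effect is not restricted to any liver cell type. The labels do not say whether an array holds the RNA of 1 animal or of a pool, so the p-values below measure the spread between these arrays only, which may be in part technical.

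Sinusoidal endothelial cells line the capillaries of the liver lobule. Their wall is perforated by open fenestrae and has no continuous basement membrane, and they clear waste molecules from blood by endocytosis through scavenger, lectin and Fc receptors. They also carry the receptors for vascular growth factors common to all endothelium. When they lose fenestrae and take on the features of ordinary capillaries, as is known in ageing and fibrosis, the process is called capillarisation. In whole liver a lower signal can stand for fewer such cells or for less RNA per cell, and these cannot be told apart.

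The 8 arrays had medians between 74.5 and 82.8 signal units, and the median absolute log2 difference between the arrays of a pair was 0.26 in MT, 0.19 in WT of 3 months, 0.26 at 12 months and 0.22 at 19 months. Sirt1 itself was read by 1 probe set, at 615 and 713 in MT livers, against 589 and 539 in 3-month WT livers. No source used here says whether its probes lie inside or outside the deletion, so it cannot serve as a check of the genotype. The 3 Xist probe sets lay at or above percentile 95.2 and the 9 Y-linked probe sets at or below percentile 43.1 on every array, while the methods describe the mutants as males. The 3′ to 5′ log2 ratio of the pyruvate carboxylase control was 3.88 to 3.93 in MT and 3.88 to 4.25 in WT of 3 months, and higher in the older WT, at 4.54 to 5.10 at 12 months and 4.77 to 5.86 at 19 months. The part of this ratio in the age differences below was not tested.

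None of the 14 member probe sets that reached the test (those in the upper 50 percent by mean log2 signal) passed an adjusted p of 0.05 in any comparison. In MT against 3-month WT livers the count was 0 of 14, where 116 of 22519 probe sets (0.515%) were called. It was 0 of 14 at 12 against 3 months, where 0.0133% of all tested were called, 0 of 14 at 19 against 3 months, where 0.0355% were called, and 0 of 14 at 19 against 12 months, where 0% were called. MT livers set against WT livers of 12 and 19 months, comparisons chosen after the data were seen, also gave 0 of 14 each, where 0.457% and 0.275% of all tested were called. At an unadjusted p under 0.05, 3 member probe sets differed between MT and WT (13.5% of all tested did), 4 at 12 against 3 months (8.57%), 1 at 19 against 3 months (12.5%) and 2 at 19 against 12 months (10.7%). Against the older WT livers, 1 differed between MT and 12-month WT (13.2%) and 6 between MT and 19-month WT (13%), the 6 being those of Stab2 and Mrc1, both of Lyve1 and 2 of Fcgr2b. The F test over the 4 groups also called none of the 14, with 3 at an unadjusted p under 0.05, against 0.431% of all probe sets called and 15.3% unadjusted. Stab2 and Lyve1 came nearest to the threshold, both in MT livers.

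By representative probe set, 8 of the 10 markers were below 0 and 2 above in MT against 3-month WT livers, with a median log2 difference of −0.13, where 47.7% of all tested probe sets were below 0 and 52.3% above, with a median of 0.02. Stab1, Stab2, Mrc1 and Tek were lower on both MT arrays than on both WT arrays, as were 21.7% of all tested probe sets, and Lyve1 was higher on both, as were 24%. In WT livers of 12 against 3 months, 5 markers were above and 5 below 0 (median −0.04), where 49.5% of all tested were above and 50.5% below. Of the 10, 1 was higher on both 12-month arrays (19.3% of all tested) and 2 were lower on both (20.8%). At 19 against 3 months 4 markers were above and 6 below 0 (median −0.02), where 53% of all tested were above and 47% below, with 4 higher on both arrays (26.4% of all tested) and 1 lower on both (21.8%). At 19 against 12 months 4 were higher on both arrays (23.8% of all tested) and 2 lower on both (17.5%). These counts describe the list and were not tested as a set. Both age comparisons and the MT comparison use the same 2 arrays of 3-month WT livers, so their differences are not independent.

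**Figure D1:**
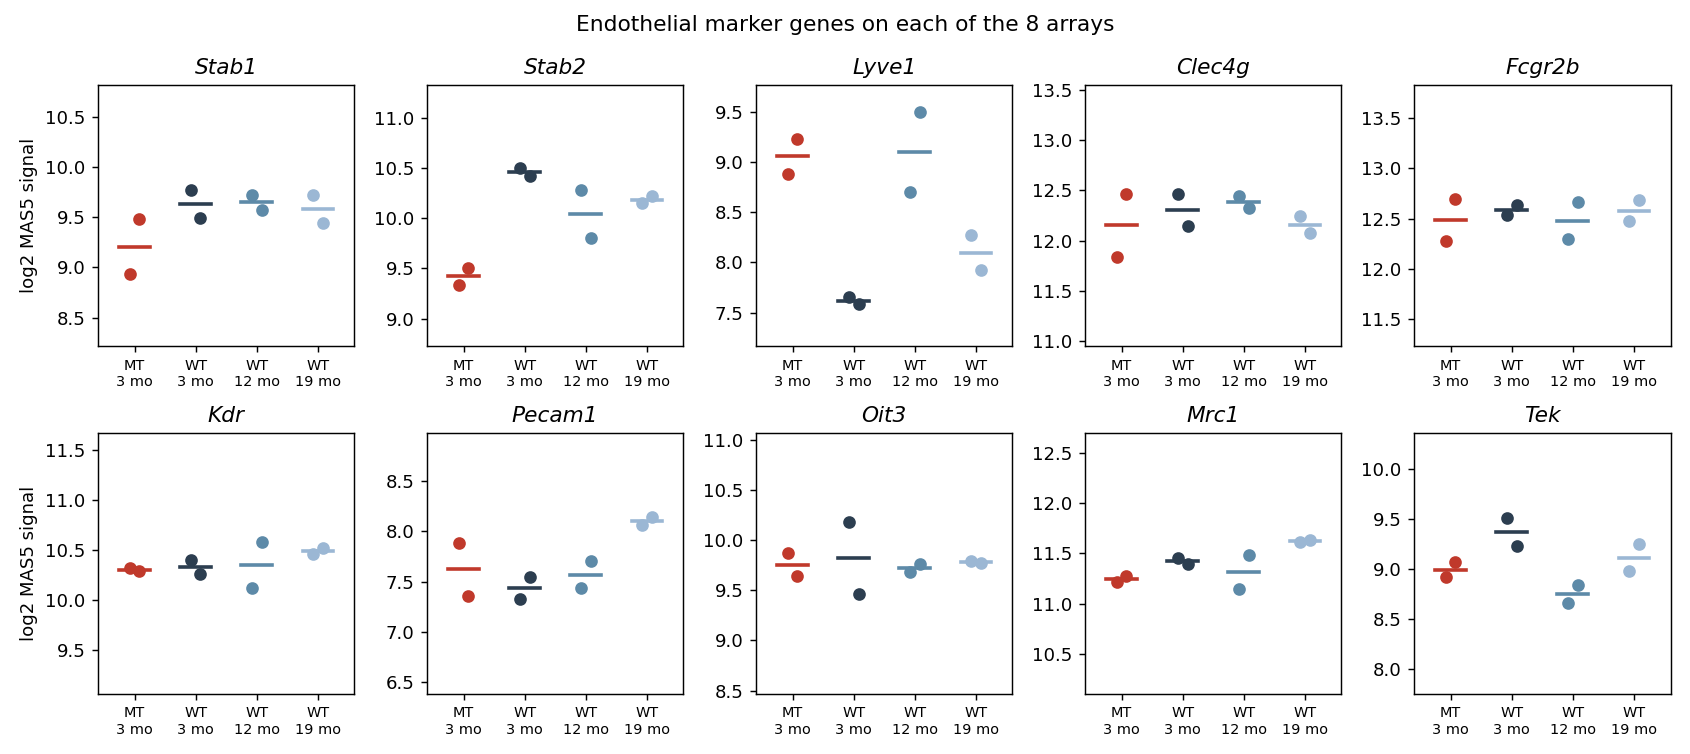
Log2 signal of each of the 10 endothelial markers, by its representative probe set, on the 8 arrays, with MT of 3 months at the left, followed by WT of 3, 12 and 19 months; each point is 1 array. Stab2 is lowest on the 2 MT arrays and Lyve1 lowest on the 2 arrays of 3-month WT livers, while most of the other markers overlap between groups.

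Stab1 and Stab2 encode the stabilins, large scavenger receptors through which sinusoidal endothelium removes oxidised lipoproteins, and, in the case of Stab2, hyaluronan. Stab2 (1419423_at) had signals of 647 and 726 in MT livers, against 1446 and 1371 in 3-month WT livers. In older WT livers it had 1247 and 894 at 12 months and 1133 and 1189 at 19 months. Both MT arrays were therefore below all 6 WT arrays, and the 3-month WT arrays were the highest of the 8. Stab2 was 2.05-fold lower in MT than in 3-month WT livers (log2 difference −1.04, SE 0.18, 95% interval −1.45 to −0.63, limma adjusted p = 0.0501). Against the older WT livers the differences were −0.62 (adjusted p = 0.195) at 12 months and −0.76 (adjusted p = 0.141) at 19 months. Within WT, Stab2 was lower on both older pairs than on the 3-month pair, with log2 differences of −0.42 at 12 months (adjusted p = 0.578) and −0.28 at 19 months (adjusted p = 0.585). The call for Stab2 in MT turned on the fit: the adjusted p was 0.0281 with robust eBayes, but 0.152 without the trend of variance on signal. With an array left out it passed the threshold only without a 12-month WT array, which is not part of this comparison. Without an MT, 3-month or 19-month WT array it did not pass. The difference itself stayed between −1.12 and −0.96.

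Stab1 (1450199_a_at) had 489 and 716 in MT livers, against 872 and 723 in 3-month WT livers. It had 847 and 762 at 12 months and 845 and 694 at 19 months. The 2 MT arrays lay further apart than the arrays of any WT group, and the higher of them was just below the lower 3-month WT array. Stab1 differed by −0.43 on the log2 scale (95% interval −0.91 to 0.06, adjusted p = 0.437) in MT livers, and 0.02 at 12 months (adjusted p = 0.989) and −0.05 at 19 months (adjusted p = 0.947) in WT livers. Both older WT pairs overlapped the 3-month pair.

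Lyve1 encodes a hyaluronan receptor of lymphatic and sinusoidal endothelium, which some tissue macrophages carry too. Its stronger probe set (1429379_at) had 472 and 602 in MT livers, against 201 and 192 in 3-month WT livers. At 12 months it had 415 and 720.3, and at 19 months 309 and 242. Both MT arrays and both 12-month arrays were above all arrays of the other 2 groups. Lyve1 was 2.71-fold higher in MT than in 3-month WT livers (log2 difference 1.44, SE 0.28, 95% interval 0.82 to 2.06, limma adjusted p = 0.0613). In WT livers of 12 against 3 months it was 2.78-fold higher (log2 difference 1.48, SE 0.28, 95% interval 0.85 to 2.10, adjusted p = 0.189), and at 19 months the log2 difference was 0.47 (95% interval −0.15 to 1.10, adjusted p = 0.531). MT of 3 months and WT of 12 months differed by −0.04 with an interval of −0.66 to 0.58 (adjusted p = 0.973). The 19-month arrays were both below the 12-month arrays, with a 95% interval of the log2 difference of −1.62 to −0.38 (adjusted p = 0.290).

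The second Lyve1 probe set (1453128_at) gave a separate reading of the same RNA. It had 276 and 352 in MT livers, against 118.5 and 155 in 3-month WT livers, and 249 and 379 at 12 months and 181 and 155 at 19 months. The 6 arrays of the MT, 12-month and 19-month livers fell in the same order by both probe sets, and the 2 arrays of 3-month WT livers were the lowest by both, although by the second probe set the higher of them was level with the lower 19-month array. By the second probe set the log2 difference was 1.20 in MT (SE 0.28, adjusted p = 0.0981), 1.18 at 12 months (adjusted p = 0.277) and 0.30 at 19 months (adjusted p = 0.706). For the first probe set in MT, the adjusted p was 0.0392 with robust eBayes and 0.156 without the variance trend. With an array left out it passed the threshold only without a 12-month WT array, which is not part of this comparison. Without an MT, 3-month or 19-month WT array it did not pass. The difference itself stayed between 1.26 and 1.61.

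**Figure D2:**
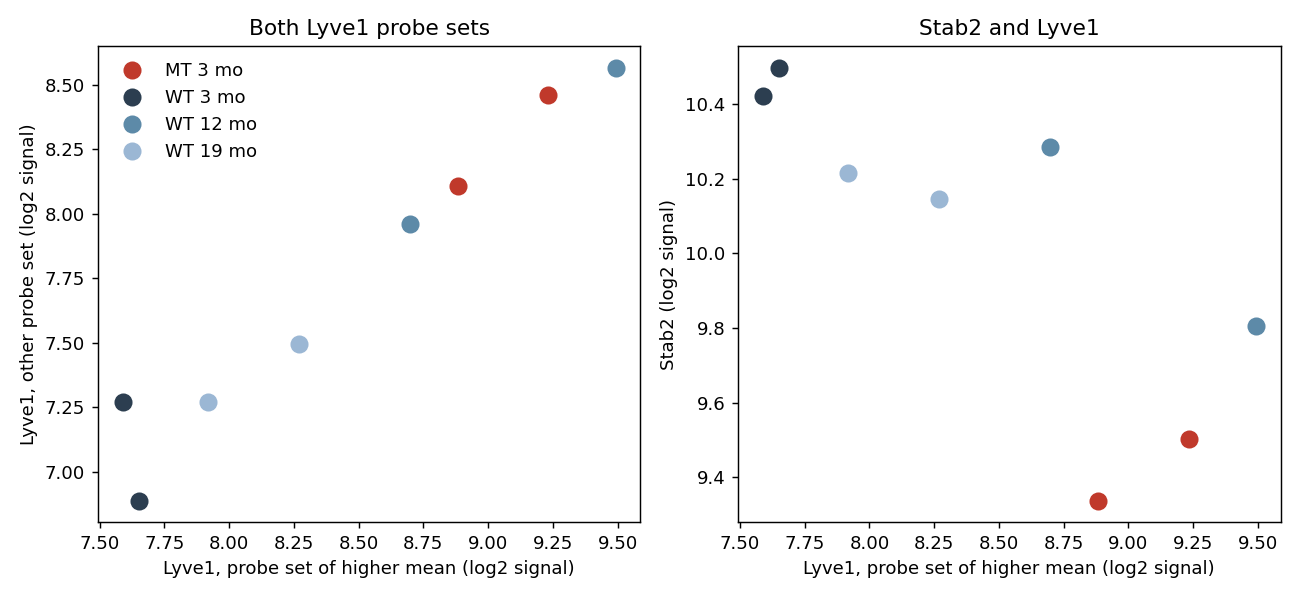
Log2 signal of the second Lyve1 probe set (left panel) and of Stab2 (right panel), each against the log2 signal of the first Lyve1 probe set. Points are the 8 arrays, coloured by group: MT of 3 months and WT of 3, 12 and 19 months. In signal units Stab2 is 647 and 726 on the MT arrays, against 1446 and 1371 on the 3-month WT arrays. Both Lyve1 probe sets are higher in MT and 12-month livers than in 3-month WT livers.

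Cd163, a haemoglobin scavenger receptor of macrophages, was 1 of 4 Kupffer cell markers above 0 in MT and 1 of 4 at 12 months. It had 997 and 1010.1 in MT livers, against 559 and 755 in 3-month WT livers, and 991 and 1183 at 12 months and 1006 and 1130 at 19 months. It was higher on both arrays in all 3 comparisons, by 0.63 in MT (adjusted p = 0.182), 0.74 at 12 months (adjusted p = 0.308) and 0.71 at 19 months (adjusted p = 0.227). The 19-month arrays of Cd163 lay between its 12-month arrays, while those of Lyve1 were both below its 12-month arrays. Of all 13 Kupffer markers, 9 were below 0 in MT, 9 were below 0 at 12 months and 13 were above 0 at 19 months. The part of macrophages in the Lyve1 values was not tested.

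Clec4g, also called LSECtin, and Mrc1, the mannose receptor, are C-type lectins that bind sugars on glycoproteins and microbes, and Mrc1 is shared with macrophages. Clec4g (1427428_at) had 3660.4 and 5648 in MT livers, against 5658 and 4532 in 3-month WT livers, and 5561 and 5137 at 12 months and 4838 and 4311 at 19 months. The 4 groups overlapped except that both 19-month arrays were below both 12-month arrays, and the first MT array was the lowest of the 8. Clec4g differed by −0.16 on the log2 scale in MT (95% interval −0.61 to 0.30, adjusted p = 0.807), 0.08 at 12 months (adjusted p = 0.952) and −0.15 at 19 months (adjusted p = 0.817). Its other probe set (1431575_at) read between 6.63 and 56.3, below the median of every array, and was not tested.

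Mrc1 (1450430_at) had 2383 and 2473 in MT livers, against 2805 and 2694 in 3-month WT livers. It had 2258 and 2866 at 12 months and 3143 and 3169 at 19 months. The MT pair lay below the 3-month WT pair and the 19-month pair above all other arrays, and within each of these groups the arrays were close to each other. These steps were small, at −0.18 in MT (95% interval −0.51 to 0.15, adjusted p = 0.654) and 0.20 at 19 months (adjusted p = 0.629), with −0.11 at 12 months (adjusted p = 0.888). The Kupffer list had differences of the same sign, with a median on the log2 scale of −0.26 in MT and 0.64 at 19 months, and its mean log2 signal was 10.1 on both MT arrays, against 10.3 and 10.2 on the 3-month WT arrays, with 10.2 and 10.3 at 12 months and 10.5 and 11.3 at 19 months. The part of macrophages in the Mrc1 values was not tested.

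Fcgr2b encodes the inhibitory Fc receptor for immunoglobulin G, by which sinusoidal endothelium takes up small immune complexes, and B cells and macrophages carry it too. Its strongest probe set (1435477_s_at) had 4977 and 6618 in MT livers, against 5928 and 6359 in 3-month WT livers, and 5019 and 6478 at 12 months and 5695 and 6577 at 19 months. All 4 groups overlapped. On the log2 scale the difference was −0.10 in MT (95% interval −0.50 to 0.30, adjusted p = 0.868), −0.11 at 12 months (adjusted p = 0.920) and −0.0047 at 19 months (adjusted p = 0.996).

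The other 3 tested probe sets of Fcgr2b were higher on both 19-month than on both 3-month WT arrays, as were 26.4% of all tested. The steps were small, and the 3 read 1 gene in the same RNA. Of the 3, 1 was lower on both MT than on both 3-month WT arrays, as were 21.7% of all tested. The probe set 1451941_a_at had 2034 and 2369 in MT livers, both below 2677 and 2645 in 3-month WT livers, for a log2 difference of −0.28 (adjusted p = 0.496), and 2940.3 and 2754 at 19 months, for a difference from 3 months of 0.10 (adjusted p = 0.856). The probe set 1455332_x_at had 2947 and 3677 at 19 months, both above 2346 and 2839.6 at 3 months, for a difference of 0.35 (adjusted p = 0.489). The probe set 1435476_a_at had 2399 and 2556 at 19 months, against 2224 and 2342 at 3 months, for a difference of 0.12 (adjusted p = 0.803), and ranged from 2092 to 2605 over all 8 arrays. The _s_at and _x_at endings mark probe sets whose probes can bind other transcripts as well, so their share of Fcgr2b signal is uncertain. The fifth, 1447622_at, read between 0.67 and 24.0 and was below the median of every array. Of the B cell markers 5 of 6 were on the array and 3 reached the test. The mean log2 signal of all 5, which include the dim untested Cd79a and Blk, ranged from 5.61 to 6.12 in MT. It ranged from 5.81 to 6.22 in WT of 3 months, from 5.67 to 5.72 at 12 months and from 6.10 to 6.17 at 19 months. The 3 tested markers had a median log2 difference from 3-month WT livers of 0.09 in MT, −0.35 at 12 months and 0.55 at 19 months. The part of B cells in the Fcgr2b values was not tested.

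Kdr and Tek encode the receptor tyrosine kinases for the 2 main families of vascular growth factors. Kdr is the principal signalling receptor for VEGF-A, and Tek, also called Tie2, binds the angiopoietins. Kdr (1449379_at) had 1276 and 1249 in MT livers, against 1352 and 1230.3 in 3-month WT livers, and 1113 and 1535 at 12 months and 1404 and 1464 at 19 months. The MT arrays fell inside the 3-month WT pair. Kdr differed by −0.03 on the log2 scale in MT with a 95% interval of −0.42 to 0.36 (adjusted p = 0.963), an interval that spans 0. It was 0.02 at 12 months (adjusted p = 0.985) and 0.15 at 19 months (adjusted p = 0.775).

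Tek (1418788_at) had 483 and 537 in MT livers, against 729 and 601 in 3-month WT livers. It had 406 and 459.5 at 12 months and 504 and 606 at 19 months. The 12-month arrays were the lowest of the 8. Both MT arrays were below the 3-month WT pair, and the 19-month arrays overlapped that pair. Tek was 1.53-fold lower at 12 than at 3 months in WT livers (log2 difference −0.62, SE 0.19, 95% interval −1.04 to −0.19, adjusted p = 0.418). Tek differed by −0.38 in MT (95% interval −0.80 to 0.04, adjusted p = 0.423) and −0.26 at 19 months (adjusted p = 0.622). Tek and Stab2 were the 2 members lower on both arrays in MT and at 12 months, comparisons that share the 3-month WT arrays.

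Of 7 ligands of these receptors and their relatives (VEGF and angiopoietin genes), all 7 were on the array, 5 reached the test and 0 passed it in either direction in any of the 3 comparisons with 3-month WT livers. Vegfd, a ligand of VEGF receptors on lymphatic endothelium, had 199 and 175 in MT livers, against 257 and 313 in 3-month WT livers. Its log2 difference was −0.60 in MT (adjusted p = 0.299), −0.52 at 12 months (adjusted p = 0.583) and −0.59 at 19 months (adjusted p = 0.355), lower on both arrays each time. Vegfb, which binds the receptor Flt1, had 383 and 358 at 19 months, against 230.2 and 201 at 3 months, a difference of 0.78 (adjusted p = 0.279). Vegfc, the chief lymphatic growth factor, was lower on both MT arrays, at 296 and 318, against 435.5 and 388 in 3-month WT livers (log2 difference −0.42).

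Pecam1 encodes the adhesion molecule CD31, found at the junctions of endothelial cells in general and also on platelets and leucocytes. Its probe set (1421287_a_at) had 237 and 164 in MT livers, against 161 and 187 in 3-month WT livers. It had 173 and 208 at 12 months and 267.5 and 283 at 19 months. The MT pair overlapped the 3-month WT pair, and the 19-month pair was above the other 6 arrays. The log2 difference was 0.19 in MT (95% interval −0.38 to 0.75, adjusted p = 0.813), 0.13 at 12 months (adjusted p = 0.930) and 0.67 at 19 months (SE 0.25, 95% interval 0.10 to 1.23, adjusted p = 0.342), which is 1.59-fold. The 3 platelet genes that reached the test did not share one direction at 19 against 3 months. Pf4, at 258 and 388 in 19-month livers, against 157 and 192 in 3-month WT livers, and Ppbp, at 62.7 and 95.7, against 40.5 and 58.6, were higher on both arrays, as they also were in MT and 12-month livers. Itga2b, named after its values were seen, was lower on both 19-month arrays, at 159 and 145, against 178 and 304 (log2 difference −0.62). The part of platelets in the Pecam1 values was not tested.

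Oit3 encodes a secreted protein with a zona pellucida domain whose RNA in liver is concentrated in sinusoidal endothelium. Its probe set (1425125_at) had 936 and 796 in MT livers, against 1160.0 and 706 in 3-month WT livers, and 822 and 865 at 12 months and 883 and 872 at 19 months. The 3-month WT arrays were the highest and the lowest of all 8, so the other groups lay between them. The log2 difference was −0.07 in MT (95% interval −0.58 to 0.44, adjusted p = 0.933), −0.10 at 12 months (adjusted p = 0.939) and −0.05 at 19 months (adjusted p = 0.958). These signs turned when the first of the 3-month WT arrays was left out, to 0.29 in MT, 0.26 at 12 months and 0.31 at 19 months.

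**Figure D3:**
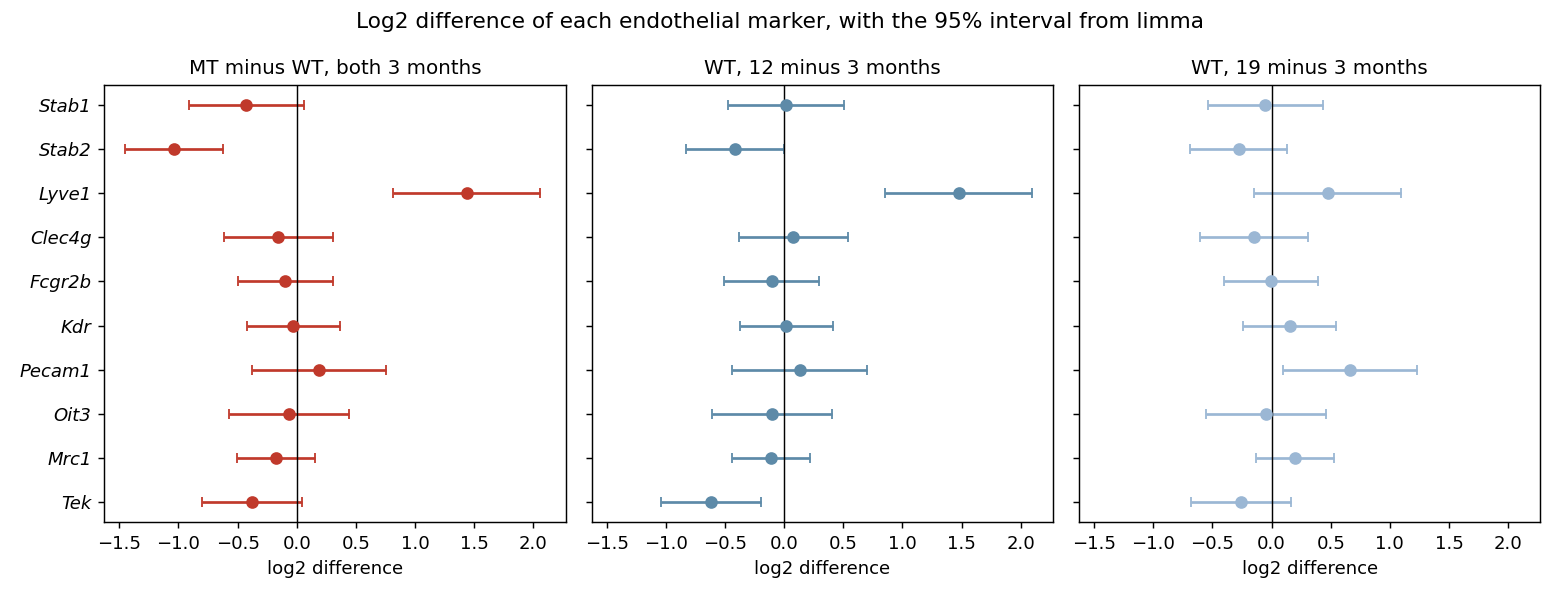
Log2 difference and 95% interval from limma for each endothelial marker, for MT minus WT of 3 months at the left, WT of 12 minus 3 months in the middle and WT of 19 minus 3 months at the right. In MT livers the intervals of Stab2 and Lyve1 lie clear of 0, at 12 months those of Stab2 (only just), Lyve1 and Tek, and at 19 months that of Pecam1, and no marker passed the adjusted threshold.

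The order of the group means, low to high, differed from marker to marker. MT livers were the lowest of the 4 groups for Stab1, Stab2, Clec4g, Kdr and Mrc1, and 12-month WT livers the lowest for Fcgr2b, Oit3 and Tek. Some of these ranks rested on very small gaps. On the log2 scale MT differed from 19-month WT livers by −0.0064 for Clec4g and from 3-month WT livers by −0.03 for Kdr. For Fcgr2b MT was 0.0093 above 12-month WT livers. The share of all probe sets lowest in MT was not counted. WT livers of 3 months were the lowest for Lyve1 and Pecam1 and the highest for Stab2, Fcgr2b, Oit3 and Tek. Fcgr2b is ordered here by 1435477_s_at only. Its other tested probe sets, 1455332_x_at, 1451941_a_at and 1435476_a_at, were lowest in MT livers and highest in 19-month WT livers. No pair of groups, whether neighbours or the ends of an order, passed the adjusted test for any member. The adjusted p of the F test over all groups was 0.520 for Stab1, 0.800 for Clec4g, 0.865 for Kdr and 0.985 for Oit3. It was 0.107 for Stab2, 0.0831 for the first Lyve1 probe set and 0.331 for Tek.

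Promoter sequences were read for the members that were lower on both MT arrays, Stab1, Stab2, Mrc1 and Tek, to show the DNA upstream of the genes that leaned the same way. Entries were found for 7 of the 10 members, and not for Lyve1, Pecam1 and Oit3. The windows run from 250 bases before to 50 after the annotated start (RefSeq, GRCm38.p6), 5′ to 3′ on the gene's strand: Stab1 at chr14:31168592-31168891 on the minus strand, Stab2 at chr10:87007893-87008192 on the minus strand, Mrc1 at chr2:14229164-14229463 on the plus strand and Tek at chr4:94739039-94739338 on the plus strand. Capitals mark matches, on either strand, to AGGAAG, the core bound by ETS factors, or to AGATAA, the core bound by GATA factors, both families known for roles in endothelial genes.
Stab1: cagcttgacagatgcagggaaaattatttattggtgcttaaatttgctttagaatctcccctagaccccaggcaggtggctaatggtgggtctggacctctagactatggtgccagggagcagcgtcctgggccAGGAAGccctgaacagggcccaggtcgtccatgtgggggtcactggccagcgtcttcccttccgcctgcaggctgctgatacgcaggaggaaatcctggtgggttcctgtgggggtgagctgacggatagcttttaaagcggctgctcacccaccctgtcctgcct
Stab2: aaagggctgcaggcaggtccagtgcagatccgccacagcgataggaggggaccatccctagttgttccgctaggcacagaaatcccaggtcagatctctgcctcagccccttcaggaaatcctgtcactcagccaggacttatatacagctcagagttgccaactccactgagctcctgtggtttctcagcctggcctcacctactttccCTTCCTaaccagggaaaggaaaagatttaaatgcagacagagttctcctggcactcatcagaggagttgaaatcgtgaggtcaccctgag
Mrc1: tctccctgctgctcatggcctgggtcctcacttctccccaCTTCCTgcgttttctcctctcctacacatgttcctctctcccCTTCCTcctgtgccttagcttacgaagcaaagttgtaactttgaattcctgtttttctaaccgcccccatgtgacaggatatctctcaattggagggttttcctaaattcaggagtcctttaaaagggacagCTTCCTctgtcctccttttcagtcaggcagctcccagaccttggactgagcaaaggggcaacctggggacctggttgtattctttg
Tek: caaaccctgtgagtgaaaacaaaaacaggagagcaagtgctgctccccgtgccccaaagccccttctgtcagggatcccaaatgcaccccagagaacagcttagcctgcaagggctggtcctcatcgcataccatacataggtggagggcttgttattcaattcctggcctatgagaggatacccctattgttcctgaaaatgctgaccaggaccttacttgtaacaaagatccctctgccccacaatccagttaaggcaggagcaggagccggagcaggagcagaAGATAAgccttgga
The AGGAAG core occurred once in the Stab1 window and once in that of Stab2, 3 times in that of Mrc1 and not in that of Tek, which held the AGATAA core once. Among 32851 mouse promoters of the same length, 35.4% held AGGAAG and 11.2% held AGATAA. Of the 7 members with an entry, 4 held AGGAAG and 1 held AGATAA. The holder of AGGAAG not shown above is Clec4g, with 3 matches, whose MT and 3-month WT arrays overlapped. The E-box CACGTG, the core bound by clock factors, occurred in none of the 7 windows and in 7.15% of all promoters. A match of letters is a description and not a binding site.

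Other genes of the same cells were taken from lists. Of 15 further sinusoidal genes, 14 reached the test, and 0 passed it in either direction in any of the 3 comparisons with 3-month WT livers. Their median log2 difference was −0.08 in MT, with 4 above and 11 below 0, −0.20 at 12 months, with 6 above and 9 below, and 0.07 at 19 months, with 9 above and 6 below. Clec1b, a C-type lectin of sinusoidal cells, had 1484 and 1603 at 19 months, against 1143 and 1076 at 3 months (log2 difference 0.48, adjusted p = 0.350). Gata4, the GATA factor that specifies sinusoidal endothelium in mouse, had 271 and 248 at 19 months, against 195.5 and 152 at 3 months (0.59, adjusted p = 0.358). In MT livers Clec1b differed by −0.06 and Gata4 by −0.08. Maf, a transcription factor of sinusoidal endothelium, had 6297 and 4579.9 at 12 months, against 7319 and 7770.4 at 3 months (−0.49, adjusted p = 0.599).

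All 20 further genes of endothelium in general reached the test and 0 passed in either direction. Their median was −0.05 in MT, −0.07 at 12 months and 0.06 at 19 months, with 17 of 20 below 0 at 12 months. Calcrl, the receptor for adrenomedullin and related peptides, was lower on both arrays in all 3 comparisons. It had 596 and 897 in MT livers, against 928 and 1029 in 3-month WT livers, and 548 and 508 at 12 months, with a log2 difference of −0.42 in MT (adjusted p = 0.423) and −0.89 at 12 months (adjusted p = 0.277). S1pr1, a receptor for sphingosine 1-phosphate that keeps the vessel wall tight, ran the other way. It had 1115 and 868 at 19 months, against 617 and 499 at 3 months, with differences of 0.32 in MT, 0.58 at 12 months and 0.83 at 19 months (adjusted p = 0.183 at 19 months). Flt1, the VEGF receptor related to Kdr, had 264 and 226 at 19 months, against 361 and 345 at 3 months (−0.53, adjusted p = 0.347).

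Of 9 genes that mark continuous capillaries or activated endothelium, 6 reached the test and 0 passed in either direction. Medians over the 9 were 0.03 in MT, −0.02 at 12 months and −0.13 at 19 months. Over the 6 tested genes they were −0.07 in MT, −0.14 at 12 months and −0.17 at 19 months. Vwf, which encodes von Willebrand factor and is typical of vessels other than sinusoids, had 92.9 and 141 in MT livers, against 190.5 and 185 in 3-month WT livers (−0.71, adjusted p = 0.325). Icam1, a leucocyte adhesion molecule, had 408 and 584 at 19 months, against 219 and 264 at 3 months (1.02, adjusted p = 0.217). Icam1 was higher and Vwf lower than in 3-month WT livers on both arrays of MT livers and of 19-month WT livers.

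**Figure D4:**
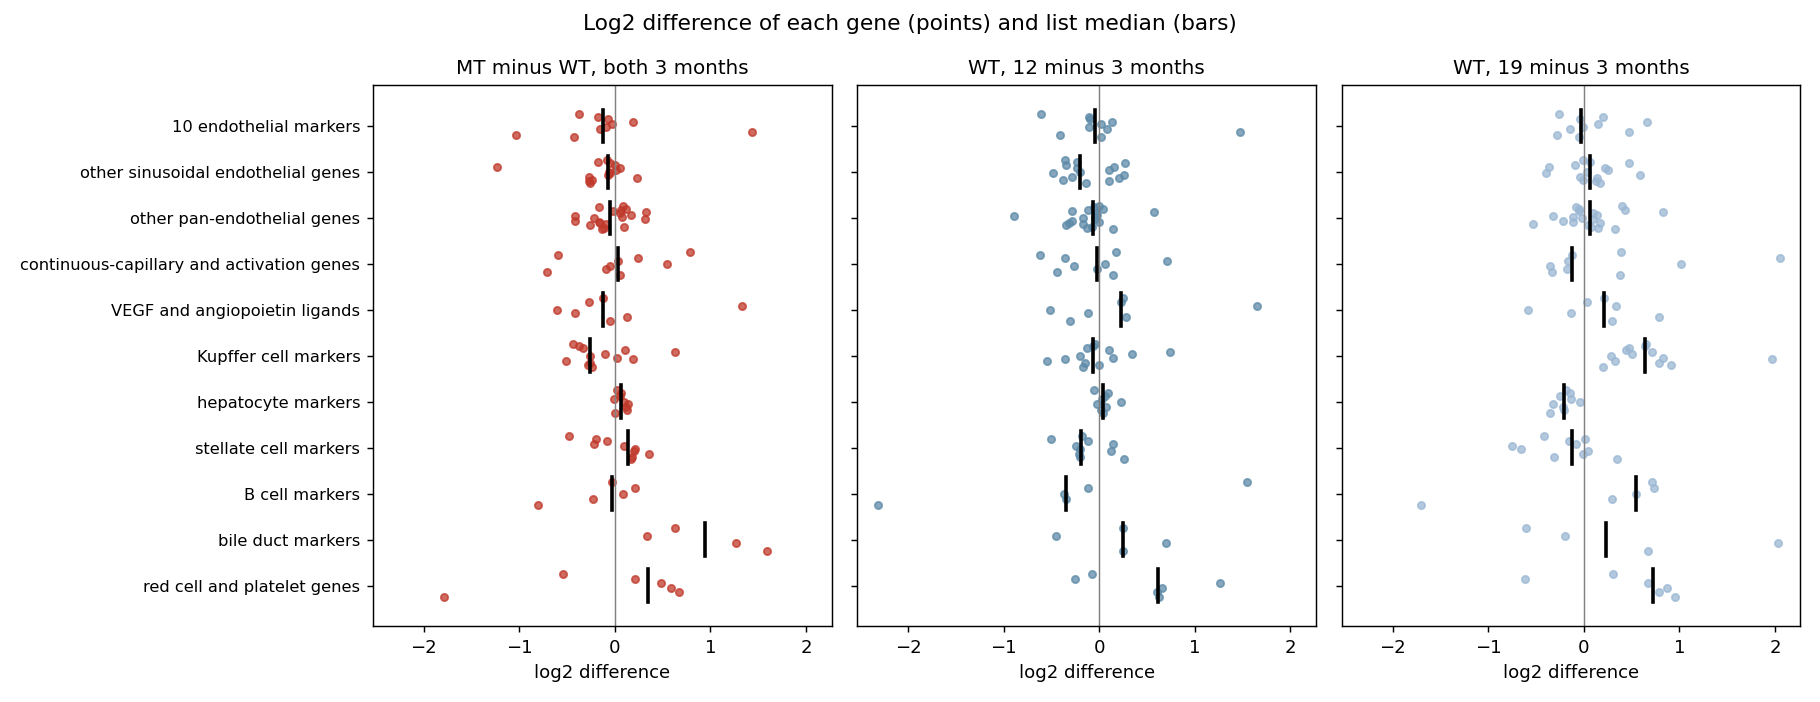
Log2 difference of every gene of the endothelial, ligand and other cell type lists, by its probe set of highest mean, in each comparison with 3-month WT livers. The endothelial lists have genes on both sides of 0 in all 3 comparisons, in unequal numbers in some. At 19 months all 13 Kupffer markers are above 0 and all 9 hepatocyte markers below 0.

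The lists for other liver cells give the tissue makeup against which the markers stand, and 0 of their genes passed the test in either direction. The 9 hepatocyte markers had a median log2 difference of 0.07 in MT and 0.04 at 12 months. At 19 months their median was −0.21, with 9 of 9 below 0, and Alb, which encodes albumin, had 38990 and 45213 at 19 months, against 55184 and 52045 at 3 months (−0.35, adjusted p = 0.313). The 13 Kupffer markers had a median of −0.07 at 12 months and 0.64 at 19 months, when 11 were higher on both arrays (26.4% of all tested). The 2 arrays of 19 months differed in this list, with a mean log2 signal of 10.5 and 11.3. Adgre1, the F4/80 antigen, had 1083 and 1406 at 19 months, against 789 and 646 at 3 months (0.79, adjusted p = 0.190). The 10 endothelial members, by contrast, had a median of −0.02 at 19 months, and the difference between the lists was not tested. Of the 8 red cell and platelet genes, 6 were on the array, with medians of 0.34 in MT, 0.61 at 12 months and 0.73 at 19 months. The 4 that reached the test had medians of 0.53 in MT, 0.63 at 12 months and 0.73 at 19 months. Only 1 of the 4 bile duct markers on the array reached the test, Epcam, at 97.2 and 123 in MT livers, against 75.5 and 99.4 in 3-month WT livers. The 10 stellate cell markers had medians of 0.13 in MT, −0.19 at 12 months and −0.12 at 19 months.

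Likeness to the joint pattern of the members was measured as Pearson's r over the 8 arrays with the mean of their 10 standardised profiles. That mean profile was −0.73 and −0.12 on the MT arrays, against 0.50 and −0.22 on the 3-month WT arrays, with −0.46 and 0.33 at 12 months and 0.32 and 0.39 at 19 months. The arrays of the 12-month pair lay far apart in it and those of the 19-month pair close together. Of 19266 tested probe sets with a single symbol outside the members, 27 had an r above 0.9. The 5 highest were Cd74 (0.971), Dop1a (0.970), Zfp597 (0.968), H2-Ab1 (0.959) and H2-Eb1 (0.950), of which Cd74, H2-Ab1 and H2-Eb1 encode parts of the MHC class II pathway. Points share an array's scale, so these values are a description of 8 arrays. The highest of 19266 values over 8 arrays can be large without any relation, and the number to expect above 0.9 was not estimated. Among the members themselves, the 45 pairs had a median r of 0.10, between −0.79 and 0.83.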

How the data were processed

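Total RNA from whole liver was hybridised to 8 Affymetrix Mouse Genome 430 2.0 arrays, 2 per group. The authors deposited MAS5 signal intensities, already background-corrected, summarised per probe set and scaled by them, and no probe-level data were used here. MAS5 intensities of dim probe sets are noisy, which limits low values.

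Signals were floored at 1, log2-transformed and kept on the authors' scale. After removal of 64 control probe sets, 45037 remained, of which the 22519 in the upper 50 percent by mean log2 signal were tested (lowest mean 6.18). Genes were named from the platform annotation. The 4 groups were fitted together with limma 3.58.1 in R 4.3.3 (lmFit, eBayes with a variance trend), with 4 residual and 5.37 prior degrees of freedom. P-values were two-sided and adjusted by Benjamini-Hochberg over all 22519, and adjusted p under 0.05 was called. The probe set with the highest mean stood for its gene. An exact permutation test of 2 against 2 arrays cannot go below 0.333, so none is given. Every member was named. From each other list up to 3 genes with the largest absolute moderated t against 3-month WT livers could be named, together with the 5 genes most like the members.

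The members and the gene lists were chosen with earlier results of these data known. On simulated data for MT against WT with 22519 probe sets, 24% of 100 2-fold and 68% of 100 4-fold changes were called, with 1 false call. Alternatives covered scaling, pseudocount, filter, variance model, samples fitted, each array left out, the replicate number as a block and the methods' t-test with a fold limit. Same-numbered arrays deviated with correlations of −0.03 to 0.14, so the numbers were not used as pairs.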

Additional observations from a re-analysis of the deposited data

How the results depend on the processing

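Of 800 single-member values under alternatives, 755 kept their direction and side of the threshold, 15 became calls and 30 reversed; the cause was not tested. Member calls in MT against 3-month WT livers, 0 in the fit reported, numbered 1 with log2(signal + 16), 1 with no filter, 2 with robust eBayes, 2 with only those groups fitted, 3 by the methods' t-test, 3 at adjusted p under 0.10 and 0 to 2 with 1 array left out. The 2 were Stab2 and Lyve1, and with 1 array left out they were called only without a 12-month WT array. The F test called 0 to 1 with 1 array left out and 1 at 0.10, and the methods' t-test 1 (Pecam1) at 19 against 3 months.

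Calls over all probe sets moved as follows. For MT against 3-month WT livers (116) they were 9 without the variance trend, 233 with robust eBayes, 890 by the methods' t-test, 0 after Benjamini-Hochberg, 413 at 0.10 and 15 to 250 with 1 array left out. For 12 against 3 months (3) they were 5 with median centring, 0 without the trend, 12 with only those groups, 502 by the methods' t-test, 0 after adjustment, 5 at 0.10 and 0 to 20 with 1 array left out. For 19 against 3 months (8) they were 21 with median centring, 1 without the trend, 25 with the replicate number as a block, 135 with only those groups, 750 by the methods' t-test, 0 after adjustment, 57 at 0.10 and 2 to 30 with 1 array left out. For 19 against 12 months (0) they were 3 with no filter, 2 with robust eBayes, 5 with only those groups, 524 by the methods' t-test, 4 at 0.10 and 0 to 11 with 1 array left out. For the F test (97) they were 3, 172 and 315 without the trend, with robust eBayes and at 0.10, and 14 to 201 with 1 array left out. The replicate block changed no member call.

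With 1 array left out, some members that differed little changed sign. In MT against 3-month WT livers, Clec4g ranged from −0.47 to 0.16, Fcgr2b from −0.30 to 0.11, Kdr from −0.10 to 0.037, Pecam1 from −0.076 to 0.45 and Oit3 from −0.43 to 0.29. At 12 against 3 months, Stab1 ranged from −0.12 to 0.15, Clec4g from −0.082 to 0.24, Fcgr2b from −0.29 to 0.077, Kdr from −0.21 to 0.25, Pecam1 from −0.0046 to 0.26, Oit3 from −0.46 to 0.26 and Mrc1 from −0.28 to 0.060. At 19 against 3 months, Stab1 ranged from −0.19 to 0.089, Clec4g from −0.31 to 0.011, Fcgr2b from −0.11 to 0.10 and Oit3 from −0.40 to 0.31, and Fcgr2b was 0.054 with quantile normalization and 0.014 with median centring. At 19 against 12 months, Stab1 ranged from −0.21 to 0.072, Stab2 from −0.10 to 0.38, Fcgr2b from −0.082 to 0.29 and Kdr from −0.10 to 0.37. The members' median at 19 against 3 months ranged from −0.071 to 0.15. Where an array was left out, the lone array of its pair is assumed to vary like the other groups. With 2 arrays a group, small changes were not detectable, and larger ones were often missed. In the simulated data 24% of 2-fold and 68% of 4-fold changes were called. Probe sets below the array median had too little signal over background to compare.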
